A study of Arabidopsis thaliana with 27 samples.

Results

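The genes described here encode the auxin receptors of Arabidopsis thaliana and were named by locus, with a rule that uses no measured value, although earlier results of these data were known when they were named: TIR1 and its relatives AFB1 to AFB5, the receptor-like kinases TMK1, TMK3 and TMK4, and the auxin-binding protein ABP1. They are 10 of the 27313 genes in the deposited tables, and all 10 passed the filter on low counts that left 19530 genes for testing. RNA was sequenced from root tips of 5-day-old seedlings, with 40 to 50 tips of 7 to 10 mm pooled for each library. The 3 genotypes were the wild type Col-0 and 2 estradiol-inducible lines, pG1090::XVE ≫ AXR3-1, in which estradiol induces an IAA17/AXR3 protein that auxin cannot have degraded, and pG1090::XVE ≫ ΔMP, in which it induces an ARF5/MP response factor that Aux/IAA proteins no longer hold back. XVE is an estradiol-activated transcription factor, and the pG1090 promoter that drives it is active in most tissues. Each genotype received DMSO for 90 min (mock) or 2.5 μM estradiol for 90 or 180 min, with 3 libraries in each of the 9 groups. No group received DMSO for 180 min, so each comparison of 180 min of estradiol with mock also spans 90 min of time, and the responses of a line at 90 and 180 min share its mock libraries. The libraries are named A, B and C as in their titles, and no label says whether they came from separate cultures, so p-values measure the spread between these libraries, which may be technical. The comparisons ask whether the RNA of the receptors themselves moves when transcription downstream of auxin is blocked (AXR3-1) or switched on (ΔMP).

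Auxin is perceived by more than 1 kind of protein. TIR1 and the AFB proteins are F-box subunits of SCF ubiquitin ligases. Auxin binds in a pocket between the F-box protein and an Aux/IAA repressor, the repressor is degraded, and the response factors it held back, such as ARF5/MP, are released. TMK proteins are receptor-like kinases of the plasma membrane that act with auxin-binding proteins of the cell wall space such as ABP1, on the small GTPases of the ROP family, on plasma membrane proton pumps and on kinase cascades. AXR3-1 and ΔMP act downstream of TIR1/AFB, so in these lines auxin transcription is altered without a change in the hormone supplied. MicroRNA miR393 pairs with the mRNA of several TIR1/AFB genes and directs their cleavage.

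In the RefSeq annotation of TAIR10.1, the 10 genes lie on all 5 chromosomes. TIR1 (AT3G62980, the founding auxin receptor) lies at chr3:23273065-23276630 on the minus strand. AFB1 (AT4G03190, a largely cytoplasmic member that acts in rapid root growth responses) lies at chr4:1404887-1407402, minus strand. AFB2 (AT3G26810) lies at chr3:9867652-9870782, plus strand, and AFB3 (AT1G12820, also known from responses to nitrate) at chr1:4368760-4371298, minus strand. AFB4 (AT4G24390) lies at chr4:12613076-12616238 and AFB5 (AT5G49980) at chr5:20333897-20336671, both on the minus strand, and this pair forms a separate branch of the family that also binds the synthetic auxin picloram. Each of these 6 genes has 3 coding exons. TMK1 (AT1G66150) lies at chr1:24631338-24634781, plus strand, TMK3 (AT2G01820) at chr2:357353-360924, minus strand, and TMK4 (AT3G23750) at chr3:8558060-8561766, plus strand, each with 2 coding exons. ABP1 (AT4G02980) lies at chr4:1319603-1321608, minus strand, with 5 coding exons.

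The files hold 1 coding sequence for each of the 10 genes, from 597 bases (ABP1) to 2832 (TMK3), and each has the length of a RefSeq coding sequence at the same locus. No 31-base word of TIR1, AFB1, AFB2, AFB3, the TMK genes or ABP1 occurs in the coding sequence of another gene, while AFB4 shared 8 of its 1842 words with AFB5, so few reads could have been shared within the family. Genes annotated on the opposite strand cover 419 coding bases of AFB1 and 638 of AFB3, and since the sources do not state that strand was used in counting, reads of such partners cannot be told apart from those of AFB1 and AFB3. The partner of AFB1 that is in the files, AT4G03180, gave a log2 fold change of -0.04 ± 0.08 (SE) in AXR3-1 at 180 min (adjusted p = 0.801) and 0.13 ± 0.08 in ΔMP (adjusted p = 0.264). The partner of AFB3 in the files, AT1G12810, gave 0.07 ± 0.13 (adjusted p = 0.792) and -0.15 ± 0.13 (adjusted p = 0.441). The other partners, AT4G04455 and AT1G04977, were not analysed here.

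The mature miR393 of both its genes, MIR393a on chromosome 2 and MIR393b on chromosome 3, is shown with its seed (bases 2 to 8) in capitals, followed by the stretch of each of 4 receptor mRNAs that pairs with it. These stretches are shown because miR393 is known to direct cleavage of mRNAs of this family. Its part in the responses of TIR1, AFB1, AFB2 and AFB3 was not tested. In the 4 mRNA stretches, written as DNA from 5′ to 3′, capitals mark bases that do not match the exact complement of miR393.
miR393: uCCAAAGGgaucgcauugaucc
TIR1, coding bases 1516 to 1537, chr3:23273727-23273748: gAGAcaatgcgatccctttgga
AFB1, coding bases 1504 to 1525, chr4:1405341-1405362: gAGAcCatgcgatccctttgga
AFB2, coding bases 1501 to 1522, chr3:9870237-9870258: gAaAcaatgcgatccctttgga
AFB3, coding bases 1507 to 1528, chr1:4369085-4369106: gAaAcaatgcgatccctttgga

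AFB2 and AFB3 carry the same 22 bases, with 2 mismatches to the complement of miR393. TIR1 has 3 mismatches and AFB1 has 4, and in each of these genes 1 of them leaves a G:U pair. The best stretch of AFB4 has 7 mismatches and that of AFB5 has 8, and the TMK genes and ABP1 have 8 to 10 at best. Of 26636 genes searched in their longest coding sequence, 6 held a stretch with 4 mismatches or fewer, namely these 4 receptors, AT2G33540 and AT3G23690. MicroRNA itself was not measured in these libraries.

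Depth ranged from 13634037 to 34272503 assigned read pairs per library (median 20071330), and the receptors drew from 161 estimated counts (ABP1, lowest library) to 5489 (AFB1, highest). The 2 transgenes matched their labels: reads of the IAA17/AXR3 locus went from 130 to 152 TPM (a length-corrected unit with the same total in each library) in the AXR3-1 mock to 2439 to 2594 TPM at 180 min, and those of ARF5/MP from 9.06 to 9.47 TPM in the ΔMP mock to 1342 to 1425 TPM. Native and transgenic transcripts of these 2 loci cannot be told apart. All 9 root marker genes were tested, and their summed level lay between 474 and 649 TPM in every library. The 5 shoot and green tissue markers summed to 27.6 to 72.3 TPM, highest in ΔMP after 90 min of estradiol (66.9 to 72.3 TPM) and 31.2 to 37.1 TPM in the Col-0 mock, and none of the 14 was at 0 in all libraries.

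**Figure D1:**
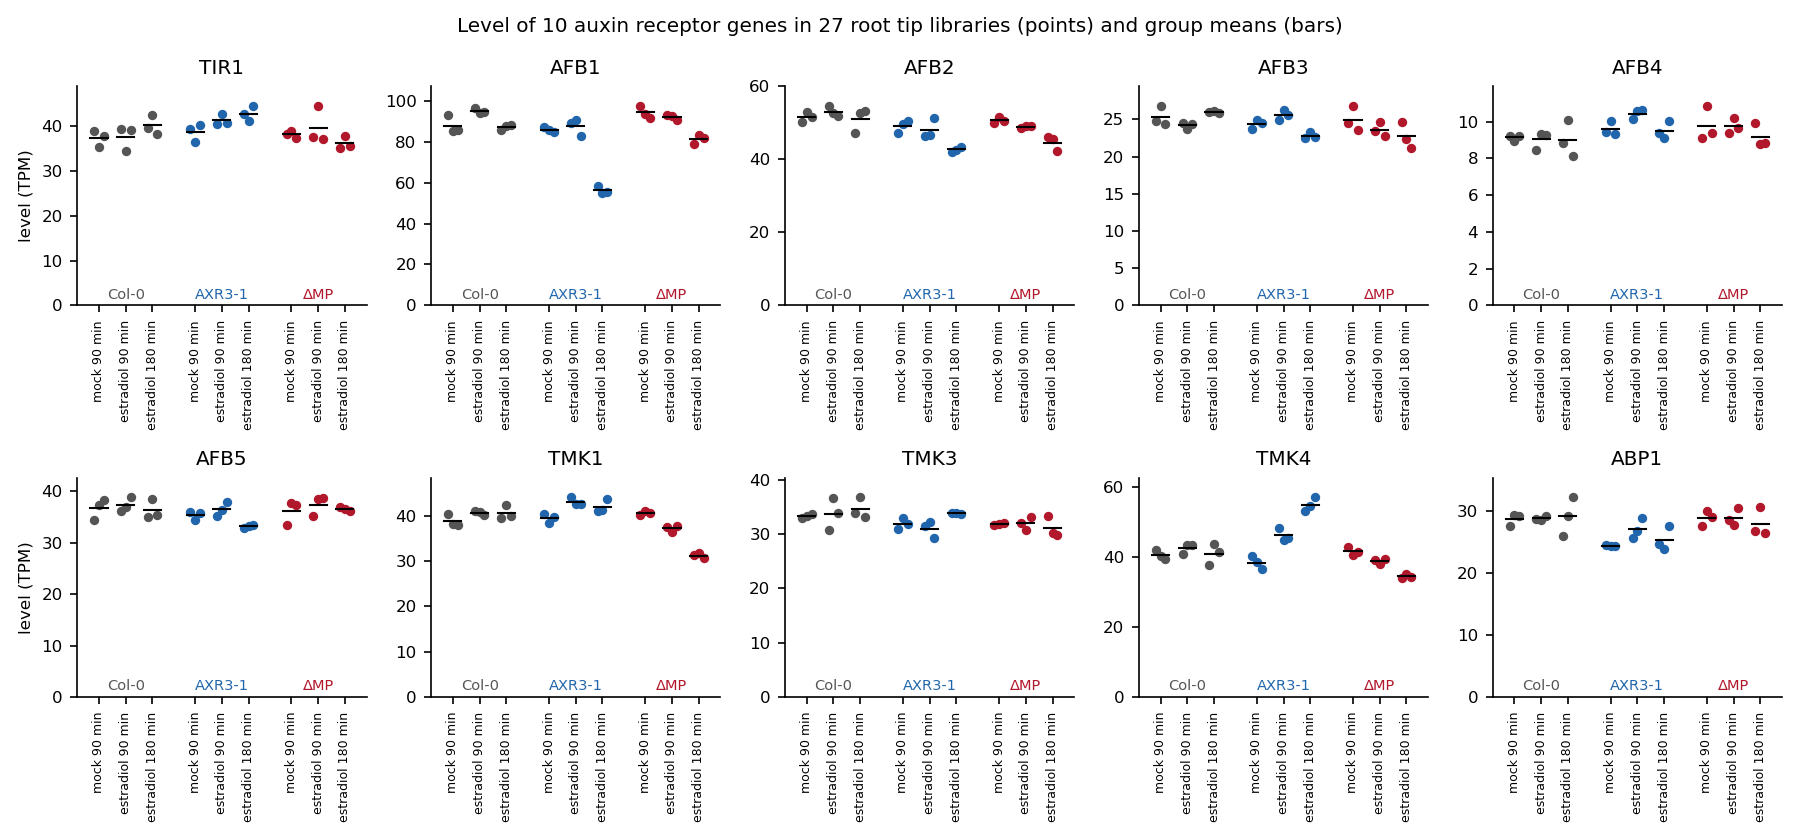
Level in TPM (vertical axis, from 0) of each of the 10 receptor genes in the 27 libraries, grouped by genotype and treatment. Points are libraries A, B and C from left to right and bars are group means. AFB1 at 180 min in AXR3-1 lies at 55.0 to 58.5 TPM, under every other library, while TMK4 in the same libraries lies at 53.0 to 56.9 TPM, above every other library.

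TPM corrects for an estimated length of the coding sequence, and on that basis levels were set side by side between genes. In the Col-0 mock, AFB1 was the highest of the 10 with 87.8 ± 4.5 TPM (SD, n = 3), followed by AFB2 with 51.5 ± 1.4 TPM. A middle tier followed, of TMK4 (40.4 ± 1.3 TPM), TMK1 (38.9 ± 1.3), TIR1 (37.4 ± 1.8) and AFB5 (36.7 ± 1.9), in which each gene's libraries overlapped those of the next. Below these came TMK3 (33.4 ± 0.4 TPM), ABP1 (28.8 ± 1.0), AFB3 (25.3 ± 1.3) and AFB4 (9.15 ± 0.15), none of which overlapped its neighbour in the order. AFB1 ranked highest by group mean TPM in all 9 groups, and ABP1, AFB3 and AFB4 kept ranks 8, 9 and 10. ABP1 and AFB3 overlapped in the AXR3-1 mock (24.5 ± 0.1 and 24.4 ± 0.6 TPM). With counts per kb of coding length in place of TPM, the ranks of both moved. The distance of AFB1 from the next gene was not the same in all groups: in AXR3-1 at 180 min it stood at 56.4 ± 1.9 TPM and its libraries overlapped those of TMK4 (54.8 ± 2.0 TPM). TMK2, the remaining member of the TMK family, had between 0 and 0.111 TPM in any library and was too low to test.

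The mocks of the inducible lines were compared with the Col-0 mock by edgeR's quasi-likelihood test with Benjamini-Hochberg adjustment over all genes, used throughout. No receptor was called between the ΔMP and Col-0 mocks, where 3.82% of all genes were, or between the AXR3-1 and Col-0 mocks, where 2.05% were. Libraries of AFB4, TMK3 and ABP1 did not overlap between the AXR3-1 and Col-0 mocks (17.8% of all genes). Between the ΔMP and Col-0 mocks those of TMK3 did not (21.6%). The largest difference was that of ABP1, with 24.4 to 24.6 TPM in the AXR3-1 mock and 27.6 to 29.4 TPM in the Col-0 mock, a log2 difference of -0.18 ± 0.08 (SE) with adjusted p = 0.300 and unadjusted bounds of -0.35 to -0.01 (95%).

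In Col-0, which carries neither transgene, no receptor was called after estradiol. The share of all genes called in Col-0 was 6.31% at 180 min, 2.94% at 90 min and 5.64% between the 2 times of estradiol. The largest log2 fold change over mock among the 10 was 0.10 ± 0.05 (AFB1 at 90 min, adjusted p = 0.326). AFB1 stood at 93.9 to 96.3 TPM in Col-0 after 90 min of estradiol, at 84.9 to 93.0 TPM in the mock and at 85.6 to 88.3 TPM after 180 min.

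AFB1, the most abundant of the 10, showed the largest fall. In AXR3-1 it measured 86.9, 85.4 and 84.8 TPM in mock libraries A, B and C, 89.2, 90.6 and 82.5 TPM after 90 min of estradiol, and 58.5, 55.0 and 55.6 TPM after 180 min. The libraries at 180 min lay far below the rest, with no overlap, whereas those at 90 min lay on both sides of the mock. A lack of overlap between 3 libraries and 3 was common, in either direction. At 180 min, 34.0% of all genes were apart from the mock in this way in AXR3-1, and 21.5% in Col-0. The log2 fold change of AFB1 over mock was -0.53 ± 0.05 (SE, adjusted p = 2.00e-10) at 180 min, a fall to 0.690 of the mock, and 0.03 ± 0.05 (adjusted p = 0.818) at 90 min. Within the line, 180 min lay lower than 90 min by -0.57 ± 0.05 on the log2 scale (adjusted p = 1.47e-10), so the measured fall took place between the 2 times. In root tips, which hold many cell types, fewer cells of a type and less RNA per cell cannot be told apart.

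In ΔMP, AFB1 fell as well, by less. It measured 97.4, 93.7 and 91.5 TPM in the mock, 93.2, 92.3 and 90.4 TPM at 90 min and 78.7, 83.2 and 81.8 TPM at 180 min, and the libraries at 180 min did not overlap those of the other 2 groups (39.4% of all genes were apart from the mock and 36.0% from 90 min). The log2 fold change was -0.17 ± 0.05 (adjusted p = 0.00548) at 180 min and -0.04 ± 0.05 (adjusted p = 0.800) at 90 min. The response of AFB1 in AXR3-1 at 180 min differed from that in Col-0 by -0.52 ± 0.07 (adjusted p = 8.71e-07), and the response in ΔMP was less negative than that in AXR3-1 by 0.36 ± 0.07 (adjusted p = 7.32e-05). The response in ΔMP was not called against that of Col-0 (-0.15 ± 0.07, adjusted p = 0.171), although it passed with an offset for effective length (adjusted p = 0.0206) and with limma on log2(TPM + 0.5) (0.0230).

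AFB2, the next in level, was lower at 180 min in both inducible lines. It measured 47.3, 49.6 and 50.5 TPM in the AXR3-1 mock against 42.1, 42.5 and 43.4 TPM at 180 min, and 49.8, 51.6 and 50.6 TPM in the ΔMP mock against 46.0, 45.5 and 42.2 TPM at 180 min. In neither line did the 2 groups overlap, a separation shared by 34.0% of all genes in AXR3-1 and 39.4% in ΔMP. The log2 fold changes were -0.17 ± 0.05 in AXR3-1 (adjusted p = 0.0169) and -0.17 ± 0.05 in ΔMP (adjusted p = 0.0137), and neither was called against the response of Col-0, with differences of -0.16 ± 0.07 (adjusted p = 0.210) and -0.15 ± 0.07 (adjusted p = 0.226). Each call was lost in 2 of the fits that left out 1 library: adjusted p was 0.0531 without AXR3-1 mock library B and 0.0724 without mock library C, and 0.0668 without ΔMP mock library B and 0.0997 without library C of ΔMP at 180 min.

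TIR1 was the 1 TIR1/AFB gene that rose, in AXR3-1 at 180 min. It measured 39.4, 36.6 and 40.4 TPM in the AXR3-1 mock, 40.5, 42.8 and 40.7 TPM at 90 min and 42.8, 41.1 and 44.6 TPM at 180 min, and the last group lay above the mock without overlap (34.0% of all genes were apart here, in either direction). The log2 fold change at 180 min was 0.21 ± 0.07 (adjusted p = 0.0236), beside -0.03 ± 0.07 in ΔMP (adjusted p = 0.767) and 0.09 ± 0.07 in Col-0 (adjusted p = 0.513). The call was lost under 9 of 16 alternatives, with adjusted p of 0.104 on library totals without TMM, 0.0518 with the offset for effective length and 0.141 to 0.142 with limma. It was lost too without estradiol library A (0.0930) or C (0.0819) or mock library A (0.0583) or B (0.134). Its response in AXR3-1 was not called against that of Col-0 (0.12 ± 0.09, adjusted p = 0.533) or of ΔMP (-0.24 ± 0.09 for ΔMP minus AXR3-1, adjusted p = 0.0653). In ΔMP at 90 min, library B stood at 44.5 TPM, above A (37.5 TPM) and C (37.1 TPM).

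AFB3, AFB4 and AFB5 were not called in any of the 17 comparisons. AFB3 stayed between 21.1 and 26.8 TPM over the 27 libraries, AFB4 between 8.15 and 10.9 TPM and AFB5 between 32.8 and 38.8 TPM. For AFB3 the bounds (95%) of the log2 fold change at 180 min were -0.23 to 0.01 in ΔMP and -0.17 to 0.07 in AXR3-1. For AFB5 they were -0.06 to 0.16 in ΔMP and -0.14 to 0.09 in AXR3-1, and for AFB4, the lowest of the 10, -0.23 to 0.09 and -0.12 to 0.21. A log2 change of 0.5 in either direction therefore lay outside the bounds for each of these genes in both lines. The log2 fold changes of AFB3, -0.11 ± 0.06 (ΔMP) and -0.05 ± 0.06 (AXR3-1), had the sign of those of AFB2 without a call. The responses of AFB2 and AFB3 were not tested against each other. Without library A of ΔMP at 180 min, AFB3 was called in ΔMP (adjusted p = 0.0295).

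**Figure D2:**
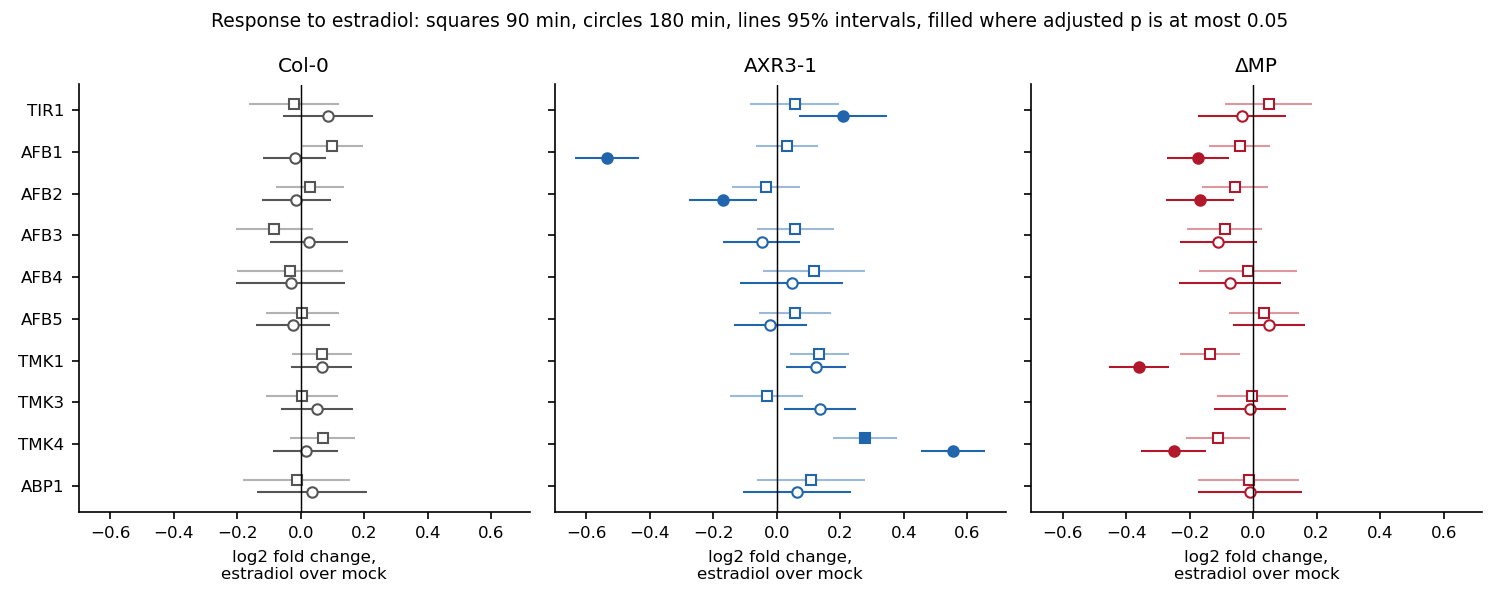
Log2 fold change of estradiol over mock (horizontal axis) for the 10 receptor genes in Col-0, AXR3-1 and ΔMP. Squares stand for 90 min, circles for 180 min, lines for 95% intervals, and filled symbols for adjusted p of at most 0.05. All symbols of Col-0 are open, while AFB1 at -0.53 and TMK4 at 0.56 in AXR3-1 lie farthest from 0.

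TMK4, a kinase known to phosphorylate the auxin synthesis enzyme TAA1, moved in opposite directions in the 2 inducible lines. In AXR3-1 it measured 40.1, 38.5 and 36.4 TPM in the mock, 48.2, 44.7 and 45.4 TPM at 90 min and 53.0, 54.5 and 56.9 TPM at 180 min. In ΔMP it measured 42.8, 40.5 and 41.4 TPM in the mock, 39.1, 38.0 and 39.3 TPM at 90 min and 34.1, 35.0 and 34.2 TPM at 180 min. The libraries thus formed 3 steps up in AXR3-1 and 3 steps down in ΔMP, with no overlap between steps, while the Col-0 libraries stayed between 37.6 and 43.7 TPM in all 3 groups. Of all genes, 21.0% in AXR3-1 and 21.6% in ΔMP were apart between mock and 90 min. Between 90 and 180 min of estradiol these shares were 31.3% and 36.0%.

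The log2 fold change of TMK4 in AXR3-1 was 0.28 ± 0.05 at 90 min (adjusted p = 0.000215) and 0.56 ± 0.05 at 180 min (adjusted p = 1.24e-10), a rise to 1.47 times the mock. It was the single receptor called at 90 min in either inducible line. In ΔMP it fell at 180 min (-0.25 ± 0.05, adjusted p = 0.000167), with -0.11 ± 0.05 at 90 min (adjusted p = 0.285). Against Col-0 the responses at 180 min differed by 0.54 ± 0.07 in AXR3-1 (adjusted p = 5.94e-07) and by -0.27 ± 0.07 in ΔMP (adjusted p = 0.00857). The response in ΔMP lay below that in AXR3-1 by -0.39 ± 0.07 at 90 min (adjusted p = 0.000229) and by -0.80 ± 0.07 at 180 min (adjusted p = 3.46e-11), the largest difference of the 10 genes over the 17 comparisons. Both comparisons with Col-0 use the same Col-0 libraries. At 90 min the response in AXR3-1 was not called against that of Col-0 (0.21 ± 0.07, adjusted p = 0.158).

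TMK1, which acts with ABP1 at the cell surface and is known to phosphorylate plasma membrane proton pumps, fell in ΔMP. It measured 40.1, 41.1 and 40.6 TPM in the ΔMP mock, 37.4, 36.4 and 37.8 TPM at 90 min and 31.3, 31.7 and 30.6 TPM at 180 min, 3 steps without overlap. Of all genes, 21.6% were apart from the mock at 90 min and 39.4% at 180 min, and 36.0% were apart between 90 and 180 min. The log2 fold change was -0.36 ± 0.05 at 180 min (adjusted p = 1.40e-07), a fall to 0.779 of the mock, and -0.14 ± 0.04 at 90 min (adjusted p = 0.0869), where DESeq2 (0.0384) and the offset for effective length (0.0293) gave a call. The response at 180 min differed from that of Col-0 by -0.43 ± 0.06 (adjusted p = 9.33e-06).

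In AXR3-1, TMK1 measured 40.4, 38.3 and 39.7 TPM in the mock, 44.0, 42.6 and 42.5 TPM at 90 min and 41.1, 41.2 and 43.6 TPM at 180 min. Both groups lay above the mock without overlap, where 21.0% of all genes at 90 min and 34.0% at 180 min were apart in either direction. The log2 fold changes were 0.13 ± 0.04 (adjusted p = 0.0764) and 0.12 ± 0.04 (adjusted p = 0.0509), neither of them a call, and the second passed with DESeq2 (0.0441) and without estradiol library A (0.0387) or mock library A (0.0429). The responses in the 2 lines differed at both times, by -0.27 ± 0.06 at 90 min (ΔMP minus AXR3-1, adjusted p = 0.00586) and by -0.48 ± 0.06 at 180 min (adjusted p = 3.03e-07).

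TMK3, the third kinase of the group, was not called in any response over mock. Over the 27 libraries it stayed between 29.3 and 36.7 TPM, with bounds (95%) of -0.12 to 0.10 for its log2 fold change in ΔMP at 180 min and 0.02 to 0.25 in AXR3-1 (adjusted p = 0.0786). In AXR3-1 it rose from 90 to 180 min of estradiol by 0.17 ± 0.05 (adjusted p = 0.0291), from 31.4, 32.2 and 29.3 TPM to 33.9, 33.8 and 33.7 TPM. That call was lost under 8 of 16 alternatives, among them limma (0.136), library totals (0.184) and the fits without estradiol library A (0.0897), B (0.0601) or C (0.0562) of 180 min or C of 90 min (0.147).

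ABP1, a small protein that binds auxin and is found in the endoplasmic reticulum and the cell wall space, was not called in any of the 17 comparisons. It measured 23.9 to 32.3 TPM over the 27 libraries, with the highest library in Col-0 and the lowest in AXR3-1, both at 180 min. Its bounds (95%) at 180 min were -0.17 to 0.15 in ΔMP, -0.11 to 0.23 in AXR3-1 and -0.14 to 0.21 in Col-0. With a coding sequence of 597 bases it drew 161 to 393 counts per library, the fewest of the 10 genes.

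**Figure D3:**
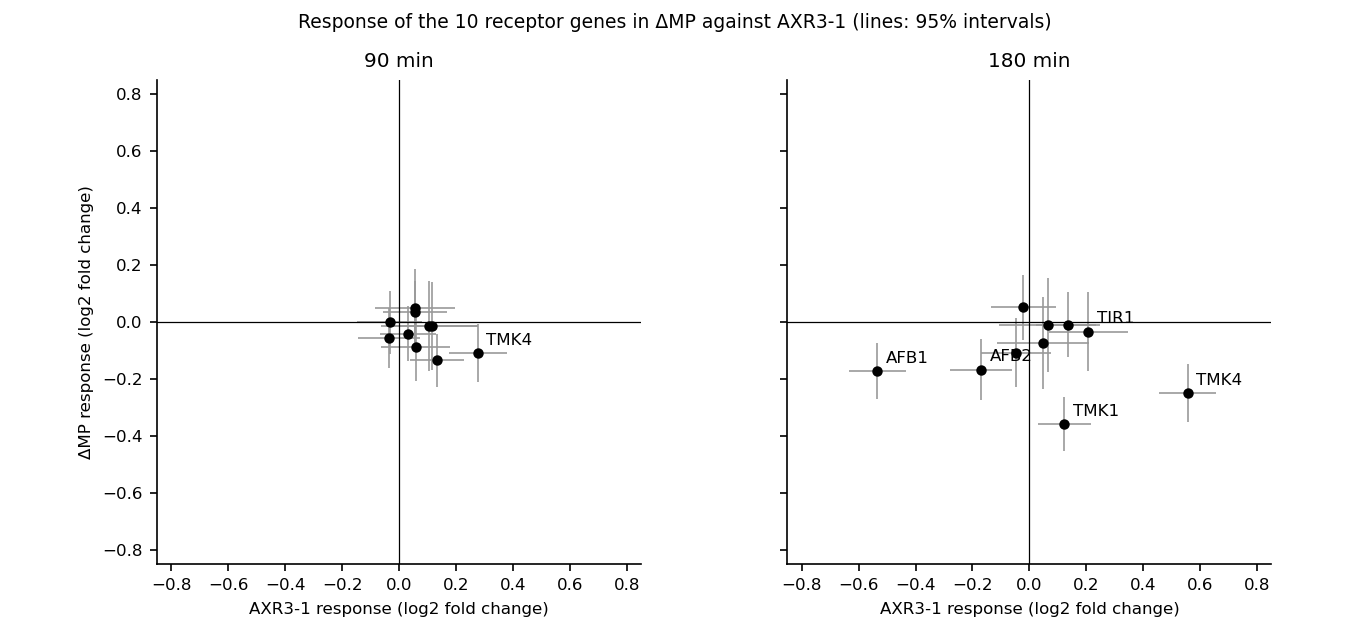
Log2 fold change over mock in ΔMP (vertical axis) against AXR3-1 (horizontal axis) for the 10 receptor genes at 90 and 180 min, with 95% intervals as lines. Genes called in at least 1 of the 2 lines are named. At 180 min TMK4 lies at 0.56 in AXR3-1 and -0.25 in ΔMP, AFB1 at -0.53 and -0.17, and TMK1 at 0.12 and -0.36.

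Counted over the 10 genes, the calls were read against the share of all genes called in the same comparison. In ΔMP at 180 min 4 receptors changed, all lower (AFB1, AFB2, TMK1 and TMK4), where 24.8% of all genes were called, 2487 higher and 2360 lower. In AXR3-1 at 180 min 4 changed, TIR1 and TMK4 higher and AFB1 and AFB2 lower, against 19.5% of all genes. At 90 min none changed in ΔMP (4.03% of all genes) and TMK4 did in AXR3-1 (5.85%). With 10 genes, these counts were not read as a property of the set. The median log2 fold change of the 10 was -0.09 in ΔMP and 0.06 in AXR3-1 at 180 min, beside 0.01 and -0.0013 over all genes tested. None of the 10 passed a minimum log2 fold change of 1 in size in any comparison, a bound that 3.65% of all genes passed in ΔMP and 2.63% in AXR3-1 at 180 min.

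Against the response of Col-0, TMK1 and TMK4 were called in ΔMP at 180 min (10.1% of all genes), and AFB1 and TMK4 in AXR3-1 at 180 min (10.9%). None was called at 90 min, in ΔMP (1.45%) or in AXR3-1 (1.38%). Between the 2 inducible lines, AFB1, TMK1 and TMK4 differed at 180 min (21.2% of all genes) and TMK1 and TMK4 at 90 min (5.03%). From 90 to 180 min of estradiol, AFB1, TMK1 and TMK4 fell in ΔMP (21.3% of all genes), of which TMK1 (-0.22 ± 0.04, adjusted p = 0.000262) was called in all 16 alternatives that set no minimum fold. The calls of AFB1 (-0.13 ± 0.05, adjusted p = 0.0409) and TMK4 (-0.14 ± 0.05, adjusted p = 0.0343) were lost in 6 and 5 of them. AFB1 was lost with only the groups compared (0.0616) and without library A (0.1247), B (0.0735) or C (0.0773) at 180 min or A (0.153) or B (0.0938) at 90 min. TMK4 was lost without library A (0.0904), B (0.0556) or C (0.0954) at 180 min or A (0.111) or C (0.0884) at 90 min. In Col-0, without a transgene, AFB1 gave -0.12 ± 0.05 over the same interval, near its value in ΔMP, without a call (adjusted p = 0.158). In AXR3-1 over that interval AFB1 fell while TMK3 and TMK4 rose (17.2% of all genes).

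**Figure D4:**
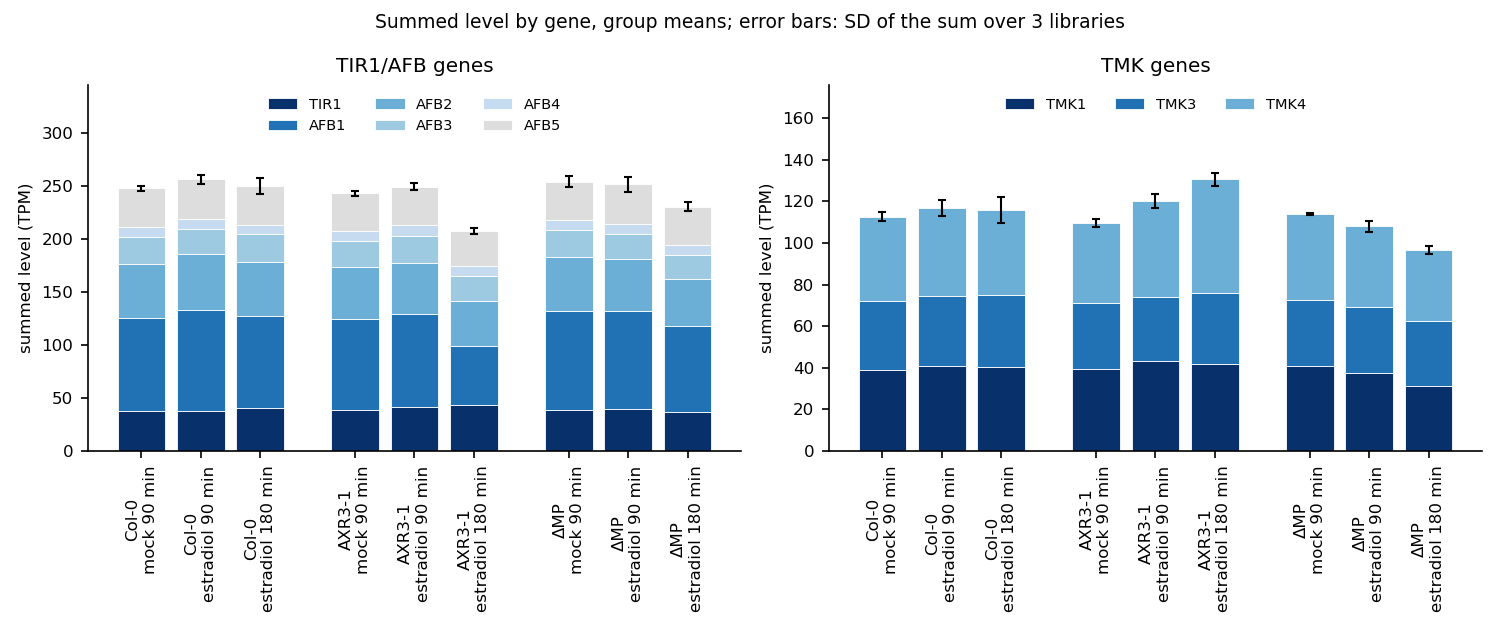
Summed level in TPM of the 6 TIR1/AFB genes and of TMK1, TMK3 and TMK4 (vertical axes, from 0) in the 9 groups, as stacked group means of the genes. Error bars are the SD of the sum over 3 libraries. In AXR3-1 at 180 min the TIR1/AFB sum is lowest at 207 TPM and the TMK sum highest at 131 TPM, while in ΔMP at 180 min both sums, 231 and 96.7 TPM, lie under those of the mock.

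Summed over the family, TIR1/AFB transcripts went from 243 ± 2.3 to 207 ± 2.8 TPM (SD, n = 3) in AXR3-1 and from 254 ± 5.0 to 231 ± 4.3 TPM in ΔMP between mock and 180 min, and from 248 ± 2.4 to 250 ± 7.6 TPM in Col-0. Most of the difference in AXR3-1 came from AFB1, whose share of the sum was 35.3% ± 0.6 in the mock and 27.2% ± 0.8 at 180 min, while that of TIR1 was 16.0% ± 0.7 and 20.7% ± 0.6. In ΔMP the share of AFB1 was 37.1% ± 1.3 in the mock and 35.2% ± 1.1 at 180 min. The sum of TMK1, TMK3 and TMK4 went from 110 ± 1.8 to 131 ± 3.3 TPM in AXR3-1 and from 114 ± 0.6 to 96.7 ± 2.0 TPM in ΔMP. The 3 mock and 3 estradiol libraries did not overlap in any of these 4 sums of the inducible lines at 180 min, and each gave an exact permutation p of 0.1 (two-sided), the smallest that 3 against 3 allows. For Col-0 at 180 min the exact permutation p was 0.8 for the TIR1/AFB sum and 0.7 for the TMK sum. At 90 min the TIR1/AFB sum lay above the mock without overlap in Col-0 (256 ± 4.5 TPM) and in AXR3-1 (249 ± 3.7 TPM), each with the same smallest p of 0.1, so a difference of this kind was also seen without a transgene. In ΔMP at 90 min it was 251 ± 6.8 TPM (exact permutation p = 0.5). The TMK sum at 90 min was 120 ± 3.3 TPM in AXR3-1 and 108 ± 2.5 TPM in ΔMP, both apart from the mock (exact permutation p = 0.1), and 117 ± 4.0 TPM in Col-0 (0.2).

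Tissue markers moved at 180 min as well. Of the 9 root markers, 2 rose and 2 fell in AXR3-1, where 19.5% of all genes were called. The log2 fold changes were 0.24 for SCR, an endodermis regulator, 0.34 for GL2 and -0.60 for WER, which set epidermal cell fate, and -0.53 for SMB of the root cap. The same 4 were called in ΔMP (SCR -0.17, GL2 0.96, WER 0.35, SMB -0.34) and GL2 in Col-0 (0.39), beside 24.8% and 6.31% of all genes. None was called at 90 min in any line (2.94% to 5.85% of all genes). The root marker sum was 522 to 594 TPM in the AXR3-1 mock and 474 to 589 at 180 min, and 607 to 649 and 581 to 607 TPM in ΔMP. Of the 5 shoot markers 2 were tested, and of these LHCB1.3 rose in AXR3-1 (0.38) and fell in ΔMP (-0.44) at 180 min. The shoot sums went from 29.4 to 32.1 TPM to 31.4 to 39.4 TPM in AXR3-1 and from 52.1 to 56.6 TPM to 42.2 to 43.8 TPM in ΔMP. The part of these markers in the values of AFB1, TMK1 and TMK4 was not tested. At 90 min in AXR3-1, where TMK4 rose, SCR stood at 37.5 to 40.0 TPM and at 32.7 to 35.8 TPM in the mock, without a call (adjusted p = 0.0665). Between the lines at 90 min, where TMK1 and TMK4 differed, SCR differed too (-0.30 for ΔMP minus AXR3-1), beside 5.03% of all genes called. SCR was picked here out of the 9 root markers, and values of the others at 90 min are not given.

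TIR1/AFB proteins work as parts of SCF complexes. Of 13 genes of the SCF complex and of the RUB pathway that activates it, from the adaptor ASK1 and the cullin CUL1 to the RUB-activating enzyme AXR1, none was called in any of the 6 responses, with list medians between -0.02 and 0.04. The share of all genes called in these responses was 24.8% and 19.5% in ΔMP and AXR3-1 at 180 min and 2.94% to 6.31% in the other 4, where 0 of 13 lies near the background. In AXR3-1 between 90 and 180 min of estradiol, 1 of the 13 fell, ASK2, another adaptor (-0.23 ± 0.06, adjusted p = 0.00363). In that comparison 17.2% of all genes were called. Of 3 other F-box genes of hormone response, COI1, the jasmonate receptor, and SKP2B, linked to cell division, fell in ΔMP at 180 min, by -0.15 ± 0.05 (adjusted p = 0.0346) and -0.43 ± 0.13 (adjusted p = 0.0110), and COI1 gave 0.00 ± 0.05 in AXR3-1 (adjusted p = 0.967). Neither was called against the response of Col-0 (-0.20 ± 0.08, adjusted p = 0.106, for COI1 and -0.15 ± 0.18, adjusted p = 0.766, for SKP2B), and SKP2B stood at 13.8 ± 0.7 TPM in the Col-0 mock and 11.3 ± 1.8 TPM in Col-0 at 180 min.

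Of 12 genes that act with the TMK kinases or AFB1, 11 were tested. RIC1, an effector of ROP GTPases that acts on microtubules, had the largest changes of the list and was low in level. It measured 1.24 to 2.06 TPM in the ΔMP mock, 1.67 to 2.05 TPM at 90 min and 10.2 to 12.4 TPM at 180 min, a rise of 2.81 ± 0.23 on the log2 scale (adjusted p = 1.13e-11). In AXR3-1 it measured 1.77 to 2.12 TPM in the mock, 0.461 to 0.882 TPM at 90 min and 0.204 to 0.860 TPM at 180 min, with log2 fold changes of -1.53 ± 0.33 (adjusted p = 0.00299) and -2.27 ± 0.38 (adjusted p = 2.33e-05), from 20 counts over the 3 libraries at 180 min. In Col-0 it measured 0.877 to 1.76 TPM in the mock and 1.53 to 2.84 TPM at 180 min, 0.79 ± 0.31 on the log2 scale without a call (adjusted p = 0.135). Its direction in both inducible lines at 180 min was opposite to that of TMK4.

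Other genes of that list moved by less. ROP2, a GTPase activated through TMK1, fell in ΔMP at 180 min (-0.20 ± 0.06, adjusted p = 0.0120), and AHA1, a plasma membrane proton pump, rose in AXR3-1 at 180 min (0.21 ± 0.05, adjusted p = 0.00423). Neither was called against the response of Col-0 (-0.22 ± 0.08, adjusted p = 0.104, for ROP2 and 0.21 ± 0.07, adjusted p = 0.0750, for AHA1). The kinase genes MKK4 and MKK5, whose proteins are substrates of TMK1 and TMK4, rose in AXR3-1 at 90 min (0.32 ± 0.09, adjusted p = 0.03003, and 0.30 ± 0.05, adjusted p = 0.000221). MKK5 rose in Col-0 at 90 min too (0.21 ± 0.05, adjusted p = 0.0169), where no transgene was induced, and MKK4 fell in Col-0 at 180 min (-0.355 ± 0.096, adjusted p = 0.0217). MKK4 was lower in the AXR3-1 mock than in the Col-0 mock (13.7 ± 1.0 and 17.6 ± 1.0 TPM, adjusted p = 0.0346), and stood at 17.0 ± 1.3 and 17.4 ± 2.0 TPM in these lines at 90 min. The responses in AXR3-1 and Col-0 at 90 min were not called as different for MKK4 (adjusted p = 0.244) or MKK5 (adjusted p = 0.809). The list median lay between -0.03 and 0.11 in the 6 responses.

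Among 7677 named genes with a mean of at least 2 TPM, the 3 whose group means over the 9 groups followed those of each changed receptor most closely were picked by Pearson r of log2(TPM + 0.5), as a description over points that share libraries. For TMK4 they were RABG3d, a Rab GTPase (r = 0.986), SKU5, a cell surface protein of directional root growth (0.977), and ACS7, an ethylene precursor synthase (0.976), whose group means ran from 0.546 to 9.94 TPM. For AFB1 they were XTH8, a xyloglucan-modifying enzyme (0.983), ARIA (0.979) and RHD6, a regulator of root hair formation (0.974). For TMK1 they were SBH2, a sphingolipid hydroxylase (0.976), the aquaporin PIP1;4 (0.974) and NAC015 (0.973). For AFB2 they were MEE44 (0.963), GSL09 (0.962) and the cytokinin response regulator ARR9 (0.938), and for TIR1, whose group means differed least of these 5, PP2C74 (0.937), UGT85A1 (0.915) and NSP4 (0.912).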

How the data were processed

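Root tip RNA of 27 libraries was sequenced as pairs of 150-base reads. Quantification by the authors used Salmon 1.3.0 and the coding sequences of TAIR10, with bias correction. The deposited estimated counts are read pairs per transcript, without depth correction, and the deposited TPM are scaled to the same total per library. The paper names Rcorrector and Trim Galore for trimming, the submitters' processing notes Trimmomatic. Effective lengths deposited per transcript served only as an offset. Coding sequences hold no UTRs, so reads within UTRs were not counted.

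Counts of a gene's transcripts were added, rounded to whole numbers and analysed by the quasi-likelihood test of edgeR 4.0.16 under R 4.3.3 (TMM, filterByExpr, 1 mean per group, 18 residual degrees of freedom). P-values were adjusted over 19530 genes, and a gene changed at an adjusted p of at most 0.05. The study's own test, sleuth, was not run here. Sums over genes were tested by exact permutation in scipy. The script was tested on simulated data. Alternatives were DESeq2 1.42.0, limma 3.58.1 on log2(TPM + 0.5), other filters and scalings, a replicate block and each library left out. Same-letter libraries of different groups correlated between -0.175 and 0.203 in their deviations (8 of 108 pairs over 0.1). Those of different letters ran from -0.189 to 0.191 (12 of 216 over 0.1). No pairing by letter was therefore used in the main test, although these values cannot tell whether some letters mark a shared culture. No 2 libraries of a group agreed within counting noise.

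Members were named by locus, without a measured value in the rule, but they and the lists were chosen with earlier results of these data known. Named genes are the 10 receptors, the pathway genes called at 180 min in an inducible line with TMK2 and COI1, and 3 pattern neighbours per changed receptor. MKK4 and MKK5 at 90 min and in Col-0, and ASK2, were named after their values were seen. Coordinates and sequences are from RefSeq TAIR10.1, 1-based. Of 32194 transcripts with a locus there, 96.4% had a coding sequence of the same length. The sequences upstream of the receptor genes are not reported here.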

Additional observations from a re-analysis of the deposited data

Results flagged for a closer look

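The response to estradiol differed between genotypes, by the test of the difference itself in edgeR, for 3 receptors. At 180 min the response in ΔMP minus that in Col-0 was -0.43 ± 0.06 (SE, log2) for TMK1 and -0.27 ± 0.07 for TMK4, and the response in AXR3-1 minus that in Col-0 was -0.52 ± 0.07 for AFB1 and 0.54 ± 0.07 for TMK4. ΔMP minus AXR3-1 was 0.36 ± 0.07 for AFB1, -0.48 ± 0.06 for TMK1 and -0.80 ± 0.07 for TMK4 at 180 min, and -0.27 ± 0.06 for TMK1 and -0.39 ± 0.07 for TMK4 at 90 min. The adjusted p of these 9 values ran from 3.46e-11 to 0.00857. Of all genes, 10.1% were called in ΔMP minus Col-0 and 10.9% in AXR3-1 minus Col-0 at 180 min. For ΔMP minus AXR3-1 the shares were 21.2% at 180 min and 5.03% at 90 min.

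Of the genes that act with the TMK kinases or AFB1, RIC1 differed in 5 such comparisons. ΔMP minus Col-0 at 180 min was 2.02 ± 0.40, AXR3-1 minus Col-0 was -3.06 ± 0.49 at 180 min and -2.06 ± 0.46 at 90 min, and ΔMP minus AXR3-1 was 5.08 ± 0.43 at 180 min and 1.67 ± 0.43 at 90 min. The Col-0 response in these values rests on 56 counts of RIC1 over the 3 mock libraries. In AXR3-1 minus Col-0 at 90 min 1.38% of all genes were called, and the other comparisons have the shares given above. ΔMP minus AXR3-1 at 180 min was -0.30 ± 0.08 for ROP2 and -0.22 ± 0.07 for AHA1, and AXR3-1 minus Col-0 at 180 min was 0.50 ± 0.13 for MKK4. MKK4 fell in Col-0 itself and its mocks differed, with 13.7 ± 1.0 TPM in AXR3-1 and 17.6 ± 1.0 TPM in Col-0, while the levels at 180 min were 14.96 ± 1.37 and 13.8 ± 0.9 TPM. Groups of 3 libraries are too small for a test of single outlying libraries.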

How the results depend on the processing

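Of 24 calls of receptors over 17 comparisons, 18 held under every alternative but the minimum fold, and no log2 fold change of a call turned direction. The share of all genes called ran from 1.38% to 24.8% over these comparisons, which share libraries, so the calls are not independent. With a minimum log2 fold change of 1 in size, 0 receptors were called in any comparison. In ΔMP at 90 min DESeq2 and the offset for effective length each called 1 receptor, TMK1, in place of 0, and in AXR3-1 at 90 min library totals called 2 (TMK4 and TMK1) in place of 1. Leaving out 1 library at a time, the receptors called numbered 3 to 5 for ΔMP against mock at 180 min, 2 to 4 for AXR3-1, 1 to 2 for ΔMP between 90 and 180 min, 2 to 3 for AXR3-1 over that interval and 3 to 4 for ΔMP minus AXR3-1 at 180 min, and did not move in the other 12 comparisons. The lowest AXR3-1 count at 180 min came without mock library B (AFB1 and TMK4). A replicate block on the library letters left 4 receptors called at 180 min in each inducible line, and the call of no receptor moved. The median log2 value of all genes was at most 0.0736 in size under any setting and comparison. CPM in place of TPM moved 10 of 90 levels by over 1 SD, and CPM per kb moved the ranks of AFB3, AFB5, TMK3 and ABP1 by 1. Over all genes, counts of calls moved by over 1.5 times in 16 cases. Col-0 at 180 min gave 709 genes with only its own groups in place of 1233, and Col-0 at 90 min gave 297 without library C in place of 574. The mocks of AXR3-1 and Col-0 differed in 126 genes without AXR3-1 library C and in 207 without Col-0 library A, in place of 400. Leaving out 1 library moved ΔMP at 90 min from 787 to 476 at the lowest, AXR3-1 at 90 min from 1142 to 693, Col-0 at 180 min to 797, ΔMP minus Col-0 at 90 min from 284 to 177, the mocks of ΔMP and Col-0 from 746 to 466, and Col-0 between 90 and 180 min from 1102 to 729. The lowest receptor, AFB4, drew 269 counts in its thinnest library.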
